A study of Mus musculus with 5 samples.

Results

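The teratomas labelled P5_2iL and P5_2iL_F were compared with those labelled P5_a2iL_1 and P5_LCDM_1, 4 of the 5 libraries of the series, and the muscle library was read beside them for context. The series measured DNA methylation by reduced representation bisulfite sequencing, which reads CpGs where they lie densely, in mice of strain C57BL/6x129S6. The teratomas, tumours that hold differentiated tissues, arose after embryonic stem cells from those culture conditions had been placed into tetraploid embryos, and the muscle is labelled as control with no culture. In this field 2i stands for a pair of kinase inhibitors that hold stem cells in a naive state, and LCDM for a medium of extended pluripotency, but the labels spell out neither these names nor P5, F or the final 1. Each label has 1 library, so the 2 libraries of a side are not replicates of a condition. The labels do not say how many animals, clones or stem cell lines stand behind them.

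In mammals most CpGs outside CpG islands carry a methyl group, while CpG islands at gene starts are mostly free of it. Stem cells in naive culture are known for low methylation, which is written anew as the cells leave pluripotency, and differentiated cell types then keep low methylation at the genes and enhancers they use. A level here is the mean of the percent methylated over cytosines listed in all 5 libraries. In a tissue made of many cells, a middle level from a mixture of cell types and one from partial methylation within each cell cannot be told apart.

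The promoters of 5 genes show what was measured. They were chosen after their values had been seen. Each is given 5′ to 3′ along its gene, 250 bases before to 50 after the start site, from RefSeq on GRCm38.p6, and capitals mark CpGs with a cytosine listed in all 5 libraries. Abca13 (chr11:9191692-9191991, plus strand) and Cd27 (chr6:125236978-125237277, minus strand) had low methylation in both 2iL teratomas. Nradd (chr9:110624344-110624643, minus strand), Lypd3 (chr7:24636320-24636619, plus strand) and Mcts2 (chr2:152686898-152687197, plus strand) had more methylation in both than in P5_a2iL_1 and P5_LCDM_1.
Abca13: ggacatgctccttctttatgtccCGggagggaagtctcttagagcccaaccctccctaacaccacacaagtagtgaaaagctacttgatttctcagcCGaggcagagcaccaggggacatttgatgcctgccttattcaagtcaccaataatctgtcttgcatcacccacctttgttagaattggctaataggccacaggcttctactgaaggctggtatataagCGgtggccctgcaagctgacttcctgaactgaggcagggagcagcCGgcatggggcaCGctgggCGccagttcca
Cd27: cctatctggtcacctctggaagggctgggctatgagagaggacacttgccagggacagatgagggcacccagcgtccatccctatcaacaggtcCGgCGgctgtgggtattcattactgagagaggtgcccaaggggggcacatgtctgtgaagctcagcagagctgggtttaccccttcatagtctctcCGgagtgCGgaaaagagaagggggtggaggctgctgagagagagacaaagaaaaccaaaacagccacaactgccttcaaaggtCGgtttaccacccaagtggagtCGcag
Nradd: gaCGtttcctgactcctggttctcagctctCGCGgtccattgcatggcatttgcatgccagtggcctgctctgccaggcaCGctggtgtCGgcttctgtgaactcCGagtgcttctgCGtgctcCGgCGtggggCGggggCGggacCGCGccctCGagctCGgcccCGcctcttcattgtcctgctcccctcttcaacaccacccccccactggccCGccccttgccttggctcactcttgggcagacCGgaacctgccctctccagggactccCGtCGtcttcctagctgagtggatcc
Lypd3: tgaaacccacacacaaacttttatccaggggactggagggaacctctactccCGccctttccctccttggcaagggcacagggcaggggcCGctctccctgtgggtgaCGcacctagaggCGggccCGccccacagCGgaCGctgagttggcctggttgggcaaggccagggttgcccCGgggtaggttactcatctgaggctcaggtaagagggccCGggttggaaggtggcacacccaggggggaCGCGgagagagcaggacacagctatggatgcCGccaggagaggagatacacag
Mcts2: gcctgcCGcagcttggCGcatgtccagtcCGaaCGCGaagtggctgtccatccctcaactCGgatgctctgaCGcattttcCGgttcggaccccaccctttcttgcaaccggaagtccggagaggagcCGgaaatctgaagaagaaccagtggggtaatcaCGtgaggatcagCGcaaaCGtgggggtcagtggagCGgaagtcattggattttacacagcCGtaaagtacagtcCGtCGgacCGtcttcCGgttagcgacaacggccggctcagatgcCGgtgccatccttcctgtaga

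In the promoter of Abca13, which encodes a lipid transporter, 12 cytosines averaged 5.09% in P5_2iL and 4.19% in P5_2iL_F, against 68.0% in P5_a2iL_1, 58.7% in P5_LCDM_1 and 60.2% in muscle. At 11 of these 12 cytosines both 2iL libraries lay below both of the others. The promoter of Cd27, a co-stimulatory receptor of lymphocytes, averaged 14.0% and 11.9% in P5_2iL and P5_2iL_F against 56.6% and 63.4% in P5_a2iL_1 and P5_LCDM_1, and 10 of its 11 cytosines had that order. Nradd, a relative of the neurotrophin receptors, showed the opposite order at 19 of 23 cytosines, with 56.2% and 53.4% against 9.78% and 22.9%, and 2.17% in muscle. Lypd3, a surface protein of stratified epithelium, had 89.6% and 79.5% against 54.5% and 38.4%, with that order at 11 of 21 cytosines. At the imprinted Mcts2 promoter the libraries did not split evenly, with 96.8%, 91.1% and 90.1% in P5_2iL, P5_2iL_F and P5_a2iL_1 but 26.7% in P5_LCDM_1, and both 2iL libraries lay above both others at 7 of 34 cytosines.

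Across the genome the 2iL teratomas carried more methylation. Over 3079380 autosomal cytosines the mean level was 49.5% in P5_2iL and 48.9% in P5_2iL_F, against 46.5% in P5_a2iL_1, 44.4% in P5_LCDM_1 and 42.7% in muscle. The side difference was 3.75 points and the nearest libraries of the sides were 2.40 points apart, little more than the 2.11 points between P5_a2iL_1 and P5_LCDM_1 and well over the 0.598 points between the 2iL libraries. An exact two-sided permutation test over the 4 libraries gave p = 0.333, the smallest that 6 splits of 2 against 2 allow. On the X chromosome the 4 teratoma levels were 57.7%, 57.3%, 55.1% and 49.9% in the same order, and on the Y chromosome 88.8%, 88.3%, 85.5% and 73.7%. P5_LCDM_1 was the lowest teratoma on both.

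The sides also differed in how many cytosines had middle levels. Cytosines between 20% and 80% made up 13.4% of the total in P5_2iL and 15.4% in P5_2iL_F, but 22.8% in P5_a2iL_1, 26.8% in P5_LCDM_1 and 21.7% in muscle. Cytosines above 80% made up 43.1% and 41.4% of the 2iL libraries against 34.7% and 30.7% of the others. The files list 4892985 and 5323090 cytosines for the 2iL side and 4446459 and 4601508 for the other, with no read depth. The spread per cytosine, taken from the difference between the 2 strands of a CpG, was 11.5 and 11.6 points in the 2iL libraries and 14.6 and 13.4 points in P5_a2iL_1 and P5_LCDM_1. The part of this difference in precision in the counts below was not tested.

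For single regions the genome was cut into fixed tiles of 1 kb, of which 162859 held 5 or more shared cytosines. A tile was called where the side means differed by 25 points or more and both libraries of one side lay beyond both of the other. This is a rule of size and not a test. Tiles called higher in the 2iL side numbered 7939 (4.87%) and tiles called lower 2534 (1.56%). With any size of difference, both 2iL libraries lay above both others in 44.9% of tiles and below them in 10.6%. Of the called tiles 75.8% were higher, but 47.2% once each library was centred on its own mean, which gave 3596 higher and 4028 lower tiles. Without P5_a2iL_1, whose levels lay nearer to the 2iL side, 19356 tiles were called higher.

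**Figure D1:**
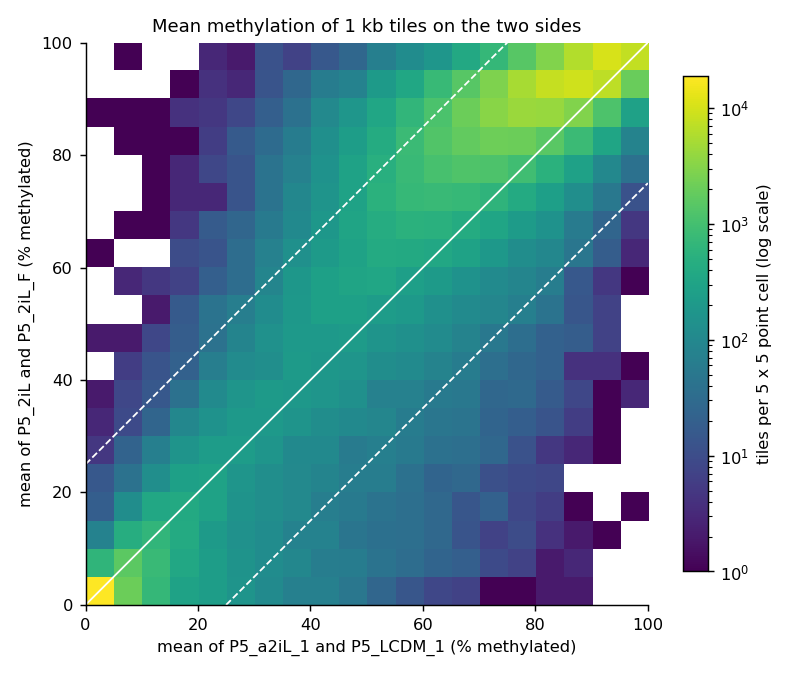
Each of the 162859 tiles is counted by its mean level in the 2 libraries P5_a2iL_1 and P5_LCDM_1 (horizontal axis, percent methylated) and in P5_2iL and P5_2iL_F (vertical axis), with colour for the number of tiles on a log scale. The solid line marks equal levels and the dashed lines a difference of 25 points, beyond which lie more tiles above the diagonal than below it.

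Tiles called higher were near the ceiling in the 2iL teratomas and at middle levels elsewhere. Their median level was 88.8% in P5_2iL and 85.9% in P5_2iL_F, 60% in P5_a2iL_1, 46.7% in P5_LCDM_1 and 49.2% in muscle. Both 2iL libraries exceeded 80% in 64.6% of them, and both libraries of the other side lay between 20% and 80% in 83.1%. Tiles called lower had medians of 15.2% and 19.9% in P5_2iL and P5_2iL_F against 55.3% and 61.5% in P5_a2iL_1 and P5_LCDM_1, and 62.8% in muscle. Muscle was nearer to the mean of P5_a2iL_1 and P5_LCDM_1 than to that of the 2iL side in 76.7% of higher and 80.7% of lower tiles. The rule picked tiles where the 2iL side was often extreme, so part of this nearness can be set by the rule. The share over all tiles was not taken. P5_LCDM_1 lay farther from the 2iL side than P5_a2iL_1 in 72.8% of higher and 62.2% of lower tiles.

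The called tiles were also read on each of the 2 DNA strands, which bisulfite sequencing reads separately. Of 4241 higher tiles with 3 or more CpGs read on both strands, 3405 (80.3%) had the sides separated the same way on each strand. Of 1502 lower tiles 1301 (86.6%) did so. The calls came from cytosines that include those of both strands, so part of this agreement is set by the rule. On single strands, of 6011 tiles called higher on the first strand alone 2270 were called on the second too, and of 1863 called lower 1040 were. In 103203 such tiles only 7 were called higher on the first strand and lower on the second, and 7 the reverse. Strands share the animal and the library, so this spread holds no difference between animals.

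Higher tiles made up from 3.92% of tiles on the Y chromosome to 5.99% on chromosome 16, and lay mostly away from gene ends. They made up 5.86% of tiles between genes, 5.06% in gene bodies and 1.87% within reach of a gene end, while lower tiles made up 1.28%, 2.04% and 0.895%. Of all lower tiles 58.1% lay in gene bodies, which hold 44.2% of tiles. Tiles with 5 to 9 cytosines were called higher in 6.67% of cases and those with 40 or more in 0.443%. Tiles at 20% to 40% in muscle were called higher most often, in 15.5% of cases, and tiles at 80% to 100% in 1.63%.

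Around gene starts the difference was small. Over the start sites of 16456 protein-coding genes, levels in the first 250 bases downstream were 3.21%, 3.19%, 3.35% and 3.62% in P5_2iL, P5_2iL_F, P5_a2iL_1 and P5_LCDM_1, and the side difference was -0.28 points. It had the other sign beyond 2 kb downstream, at 2.04 to 3.31 points.

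**Figure D2:**
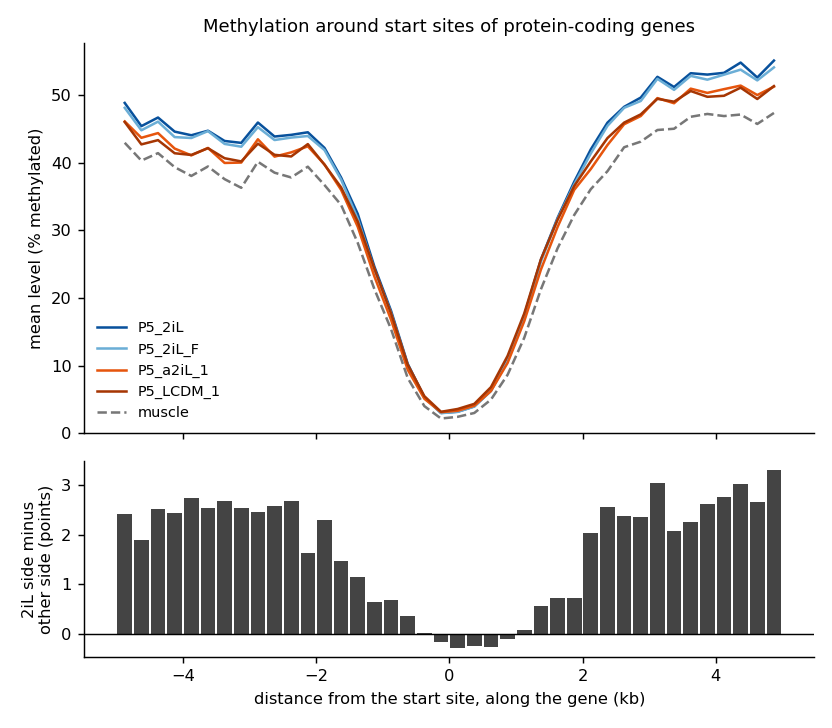
Mean level in bins of 250 bases (upper panel, percent methylated) for the 5 libraries, and the difference of the side means (lower panel, percentage points), against the distance from the start site along the gene in kb. The 5 curves meet in the trough at the start site and the 2iL curves lie above the other teratomas beyond 2 kb, with muscle lowest.

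Among called tiles with 10 or more cytosines, the one with the widest difference lay in Ctdspl. This gene encodes a phosphatase of RNA polymerase II and hosts the microRNA gene Mir26a-1 in an intron. The 15 cytosines of the tile (chr9:119029001-119030000) averaged 0.952% in P5_2iL and 5% in P5_2iL_F, against 84.7% in P5_a2iL_1, 92.6% in P5_LCDM_1 and 90.9% in muscle. The tile before it had the same order, with 15.8% and 30.7% against 69.2% and 86.2%. The tile that holds Mir26a-1, 2 kb farther along the chromosome, had the reverse order, with 98.9% and 93.8% in P5_2iL and P5_2iL_F, 85.1% in P5_a2iL_1, 22.3% in P5_LCDM_1 and 8.21% in muscle. A tile at 5 kb was again lower in the 2iL side, by 32.7 points. Of 10 measured tiles in this stretch 3 were called lower and 2 higher, so neighbouring regions of 1 locus differed in opposite directions.

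The second called-higher tile of that stretch is the start of Vill, a villin-like gene of the actin-binding gelsolin family, which was also the gene end with the widest difference. Its 8 cytosines (chr9:119051729-119053229) averaged 82.1% in P5_2iL and 89.6% in P5_2iL_F but 6.25% in P5_a2iL_1, 12.5% in P5_LCDM_1 and 0% in muscle, and both strands had that order.

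**Figure D3:**
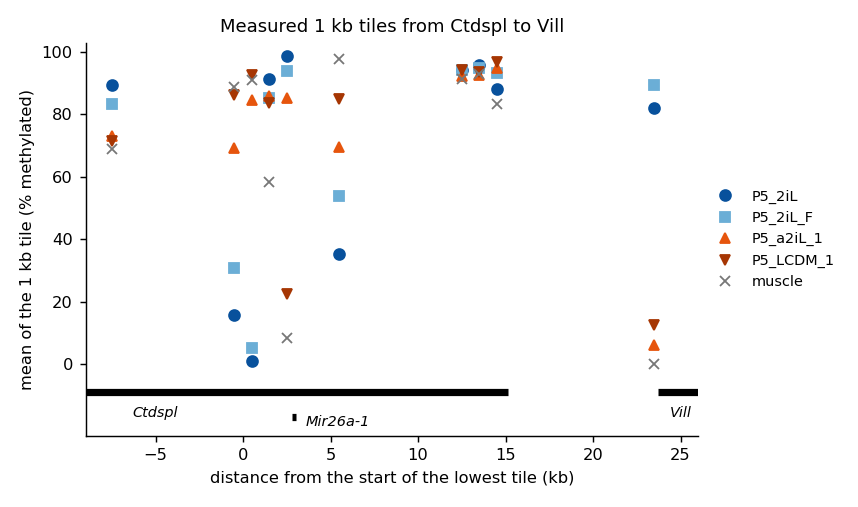
Mean level (percent methylated) of each measured 1 kb tile from Ctdspl to Vill on chromosome 9, against the distance in kb from the start of the lowest tile, with 1 symbol for each library and black bars for the genes. Both 2iL libraries lie at the bottom in the tile at 0 kb and at the top in the tiles of Mir26a-1 and Vill.

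The other widest lower tiles with 10 or more cytosines also lay in genes. In Ksr1, a scaffold of the MAP kinase pathway, the levels were 3.37% and 12.6% in P5_2iL and P5_2iL_F against 78.9% and 96.5% in P5_a2iL_1 and P5_LCDM_1. In Orai1, the pore of the store-operated calcium channel, they were 9.94% and 17.6% against 79.0% and 88.2%. Tiles in Gnat2, a transducin of cone photoreceptors, and in Prps1l1, a testis form of phosphoribosyl pyrophosphate synthetase, were lower by 70.5 and 70.8 points. In all of these muscle was high, at 83.1% to 93.6%.

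Of the 5 widest higher tiles with 10 or more cytosines, 2 lay in genes. In Lats2, a kinase of the Hippo pathway, the levels were 96.4% and 92.8% in P5_2iL and P5_2iL_F against 36.2% and 10.3% in P5_a2iL_1 and P5_LCDM_1. In Hspg2, which encodes the basement membrane proteoglycan perlecan, they were 83.3% and 95.2% against 15.0% and 23.8%. The others lay 1593 bp from Rtn4r, 18181 bp from Adm and 102230 bp from Hibadh, with differences of 72.7, 71.9 and 68.9 points. Muscle was low in all 5, at 5.69% to 27.3%.

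Most called tiles had no called tile next to them. A run also ended where the next tile was not measured, and the share of called tiles with a measured neighbour was not taken. Among higher tiles 7299 runs held 1 tile, 293 held 2, 14 held 3 and 3 held 4, and among lower tiles 2186 held 1, 162 held 2 and 8 held 3. The longest higher runs, of 4 tiles, lay in Hspg2, in Dll4, a Notch ligand of growing vessels, and in Caskin2. Over the 65 cytosines of the Hspg2 run (chr4:137485001-137489000) the levels were 83.1%, 85.8%, 43.8% and 28.5% in P5_2iL, P5_2iL_F, P5_a2iL_1 and P5_LCDM_1, and 18.4% in muscle. Of the lower runs of 3 tiles, one lay in Mpo, the myeloperoxidase of neutrophils (chr11:87800001-87803000), with 19.8% and 24.1% against 58.6% and 52.1%. Runs near Irx5 and in Lzts3 had their high level mainly in P5_LCDM_1, at 59.3% and 56.0%, with P5_a2iL_1 at 16.4% and 25.2%.

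For genes, 1 window was taken at the gene end with more shared cytosines, from 1000 bp outside to 500 bp inside. Of 21883 protein-coding genes 14227 had 5 or more cytosines there. The same rule called 173 gene ends higher in the 2iL side (1.22%) and 69 lower (0.485%), so 71.5% of calls were higher, and 68.4% after centring. With any size of difference 23.2% were separated higher and 19.4% lower. Without P5_a2iL_1 the counts were 325 and 152. Called windows lay less at gene starts than all measured ones: 71.1% of measured windows, 43.9% of those called higher and 49.3% of those called lower were known to lie at the 5′ end, with the strand not given for 20.6%, 24.3% and 26.1%. Where 3 or more CpGs were read on both strands, 81 of 104 higher and 48 of 49 lower gene ends were separated on each strand. As for tiles, part of this agreement is set by the rule. Muscle was nearer to P5_a2iL_1 and P5_LCDM_1 in 81.5% of the higher and 88.4% of the lower gene ends, with the same limit as for tiles.

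**Figure D4:**
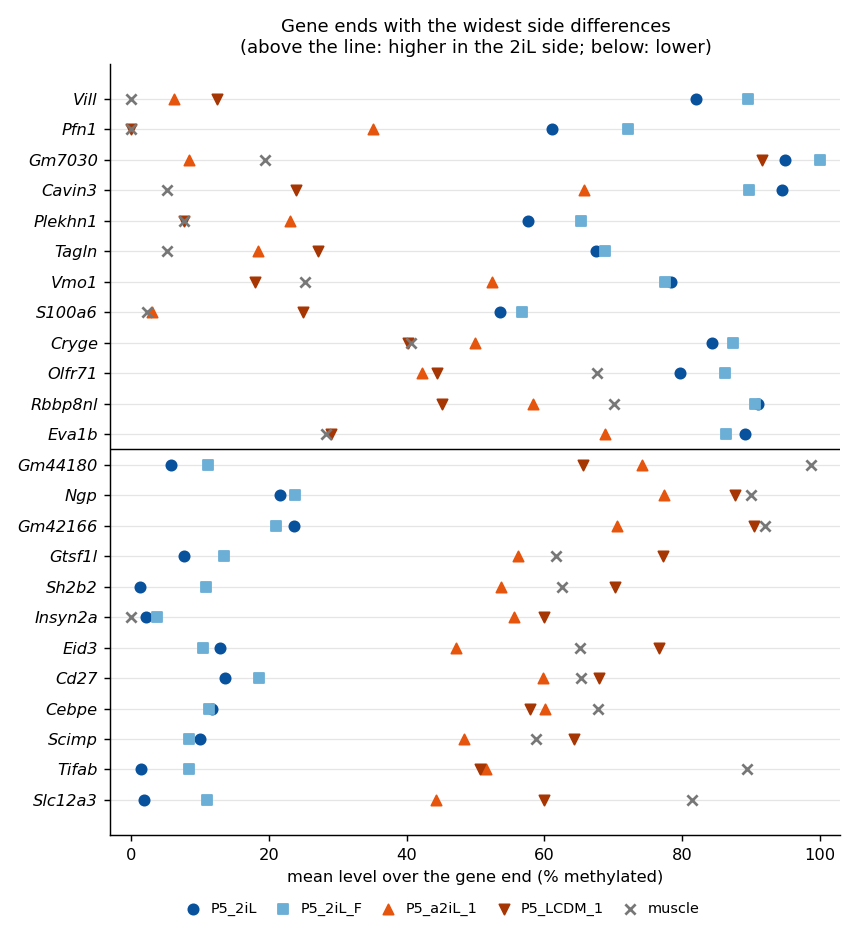
Mean level (horizontal axis, percent methylated) at the 24 called gene ends with 8 or more cytosines and the widest differences, 12 in each direction, with 1 symbol for each library. In the upper 12 both 2iL symbols lie at 53.5% or more, in the lower 12 at 23.8% or less, and muscle lies away from them in all but Insyn2a and, least far, Olfr71.

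After Vill, the widest higher gene ends with 8 or more cytosines were Pfn1, Gm7030, Cavin3, Plekhn1, Tagln, Vmo1 and S100a6. Tagln (transgelin, an actin-binding protein of smooth muscle) had 67.5% and 68.8% in P5_2iL and P5_2iL_F against 18.4% in P5_a2iL_1, 27.2% in P5_LCDM_1 and 5.26% in muscle, over 19 cytosines. Cavin3, a coat protein of caveolae, had 94.4% and 89.7% against 65.8% and 23.9%. S100a6, a calcium-binding protein of fibroblasts and epithelium, had 53.5% and 56.8% against 3.03% and 25%, with 2.27% in muscle. At Pfn1, the actin-binding profilin, the levels were 61.1% and 72.2% against 35.2% and 0%. In each of these muscle lay at 5.26% or below.

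Cryge, Olfr71, Rbbp8nl and Eva1b completed the 12. Cryge, a crystallin of the lens, had 84.3% and 87.4% against 50% and 40.2%, and the olfactory receptor gene Olfr71 had 79.7% and 86.2% against 42.3% and 44.4%. On the first strand alone Cryge differed by 17.2 points and Vmo1 by 25.5, and neither was called there. The strand of Rbbp8nl is not given, and at its lower-coordinate end the difference was 5.24 points. Eva1b differed by 18.9 points without P5_LCDM_1. At Gm7030, a gene of the major histocompatibility region with near copies, P5_LCDM_1 reached 91.7% beside 95% in P5_2iL, and without P5_a2iL_1 the difference was 5.83 points.

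Genes of white blood cells stood among those lowest in the 2iL side. Ngp, a granule protein of neutrophils, had 21.6% and 23.8% in P5_2iL and P5_2iL_F against 77.3% in P5_a2iL_1, 87.7% in P5_LCDM_1 and 90.1% in muscle, over 12 cytosines at its start (chr9:110418808-110420308). Cebpe, a transcription factor of granulocyte maturation, had 11.7% and 11.3% against 60.1% and 57.9% over 45 cytosines (chr14:54711674-54713174). Cd27 had 13.7% and 18.6% against 59.8% and 68.0% over the 18 cytosines of its wider window. Scimp, an adaptor of antigen-presenting cells, had 10.1% and 8.46% against 48.3% and 64.4%. The distance between the nearest libraries of the sides ranged from 38.3 points at Scimp to 53.5 at Ngp.

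Tifab, also of the lower 12, is given with the myeloid genes below. The remaining genes of the 12 have other or unsettled roles. Slc12a3, the salt cotransporter of the kidney, had 1.94% and 11% against 44.3% and 60%. Sh2b2, an adaptor of receptor signalling, had 1.25% and 10.8% against 53.8% and 70.2%. Gm44180, which led the list, had 5.80% and 11.2% against 74.1% and 65.6%, with 98.7% in muscle. Gtsf1l, Gm42166 and Eid3 were lower by 56.1, 58.1 and 50.3 points. Insyn2a, linked to inhibitory synapses, was the gene with 0% in muscle, beside 2.22% and 3.70% in P5_2iL and P5_2iL_F and 55.6% and 60% in the others, and over cytosines listed in the 4 teratomas its difference was -18.3 points.

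The blood lineage lists held called genes in both directions. Of 65 measured members of the 5 lists (pan-leukocyte, T cell, B cell, myeloid, erythroid and megakaryocyte), 11 were called lower (16.9%, against 0.485% of all gene ends) and 6 higher (9.23%, against 1.22%), and the median difference was 0.36 points against 0.01 over all gene ends. Those 11 were 15.9% of all 69 lower calls. The listed windows also had other levels to begin with, with a median in muscle of 43.0% for the pan-leukocyte list and 58.7% for the myeloid list against 0.985% over all gene ends. Of tiles at 40% to 60% in muscle 10.8% were called higher and 3.45% lower. Some members had been listed with their values known, so the counts are no independent evidence of a direction. The share of blood cells in each teratoma was not tested.

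Myeloid genes had the lowest median difference of any list, -15.8 points over 15 members. Their median level was 24.8% and 23.9% in P5_2iL and P5_2iL_F against 51.0% in P5_a2iL_1, 43.6% in P5_LCDM_1 and 58.7% in muscle. The 5 called lower were Cebpe, Tifab, Havcr2, Tyrobp and Prtn3. Tifab, a regulator of TRAF signalling in blood progenitors, had 1.36% and 8.36% against 51.5% and 50.6%. Tyrobp, the signalling adaptor of myeloid and NK receptors, had 0.246% and 9.76% against 32.4% and 43.6%, and shares its 14 cytosines with the neighbouring adaptor gene Hcst. Havcr2, the inhibitory receptor TIM-3, had 0% and 3.33% against 56.2% and 28.2% over 5 cytosines. Prtn3, a serine protease of neutrophil granules, lay 27.9 points lower and 23.7 points lower without P5_2iL.

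Other myeloid genes went the opposite way. Spi1, the transcription factor PU.1, had 95.6% and 90.6% in P5_2iL and P5_2iL_F against 51.0% and 65.6%, and its difference was 22.7 points where the strands of each CpG were averaged first, 24.97 on the first strand alone and 20.3 on the second. Alox5ap, needed for leukotriene synthesis, had 95.7% and 78.9% against 55.5% and 41.6%. Cd68, a lysosomal protein of macrophages, had 66.7% and 47.2% against 25.9% and 35.2% over 6 cytosines, and its difference was 16.7 points without P5_2iL and 21.8 without P5_a2iL_1. The windows of Spi1 and Alox5ap have no strand given and that of Cd68 lies at the 3′ end. Among the myeloid genes called lower, Cebpe and Tyrobp have no strand given either. Havcr2 and Prtn3 have their windows at the 3′ end, and only that of Tifab is known to lie at the 5′ end.

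Pan-leukocyte genes split 4 lower to 1 higher among 20 measured, where 0.485% of all gene ends were called lower and 1.22% higher. Of the 20, 9 were separated lower and 6 higher, against 19.4% and 23.2% of all gene ends. The median difference of the list was -1.47 points. Dock2, the exchange factor that drives leukocyte migration, had 0.311% and 8.88% in P5_2iL and P5_2iL_F against 42.1% and 43.6%, with 61.5% in muscle, over 28 cytosines at its start. Arhgap30, a GTPase-activating protein, had 0.952% and 0% against 44.6% and 44.7%. Itgb2, the beta chain of the leukocyte integrins, had 0.617% and 9.83% against 22.5% and 38.3%, and Tnfaip8l2, a brake on immune signalling, 16.9% and 24.2% against 53.0% and 47.1%. On the first strand alone Tnfaip8l2 was lower by 13.5 points and the sides overlapped. Itgb2 was lower by 20.6 points without P5_2iL and by 17.3 without P5_LCDM_1. The phosphatase gene Ptpn6 was higher at its 3′ end by 29.5 points, and by 19.3 without P5_a2iL_1. Of the lower genes, Tnfaip8l2 also has its window at the 3′ end, and that of Itgb2 has no strand given.

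The window chosen at each gene mattered for this list. Rac2, a small GTPase of leukocytes, has 8 cytosines at either end, and at the end used the sides overlapped. At its other end (chr15:78572283-78573783) the levels were 0% and 1.14% in P5_2iL and P5_2iL_F against 55.6% and 57.6% in P5_a2iL_1 and P5_LCDM_1 and 94.4% in muscle. The other end was measured for 95 listed genes, of which 4 were called higher and 2 lower. Of all gene ends in the main windows 1.22% were called higher and 0.485% lower. The second lower gene was Nckap1l, of the leukocyte WAVE complex, with 6.94% and 8.02% against 30.2% and 35%.

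Lymphoid genes were called in both directions. Of 17 T cell genes 9 were separated higher and 4 lower. Of all gene ends 23.2% were separated higher and 19.4% lower, and of tiles 44.9% and 10.6%. The T cell and B cell windows had mostly high levels, with medians of 66.3% and 90% in muscle, so tiles are the nearer background. Cd27 and Cd6 were called lower. Cd6, whose window has no strand given, differed by 31.6 points, by 19.3 without P5_LCDM_1 and by 21.9 over cytosines listed in the 4 teratomas. Rag1, which recombines antigen receptor genes, was higher at its start, with 71.9% and 64.5% against 35.2% and 28.9%, and the list's median difference was 7.89 points. Of 7 B cell genes 4 were separated higher and none lower, and Vpreb3, a gene of pre-B cells, was called higher at its 3′ end by 38.3 points. None of the 6 erythroid and megakaryocyte genes was called, with differences from -22.6 to 24.7 points.

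**Figure D5:**
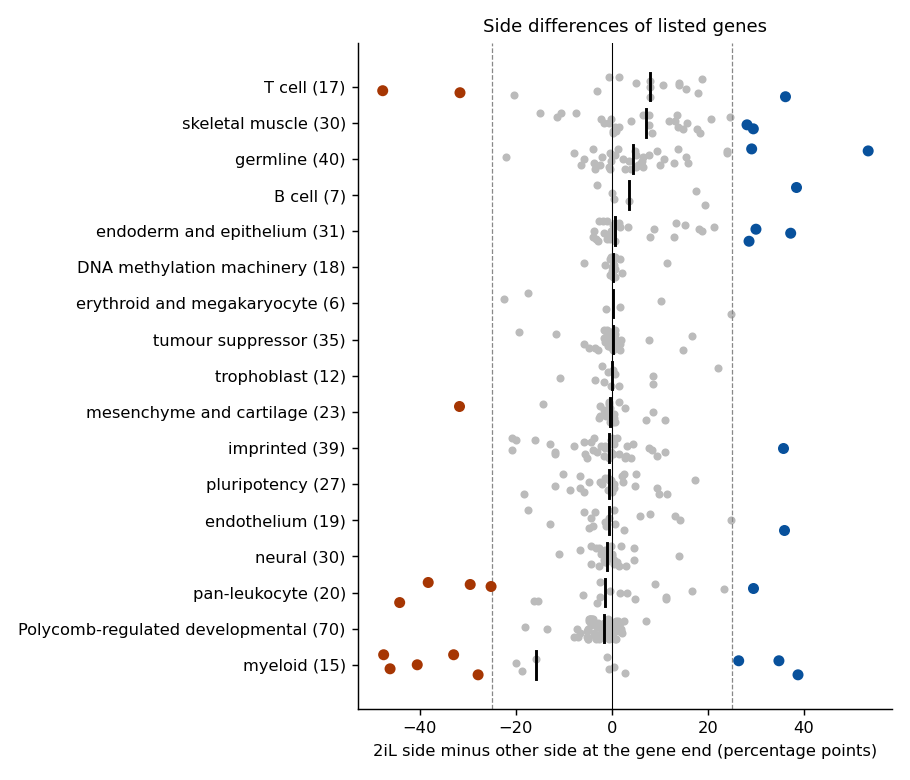
Difference of side means at the gene end (2iL side minus other side, percentage points) for each measured member of the 17 lists, with the number of measured members in brackets. Coloured points were called (blue higher, brown lower), black bars are medians and dashed lines mark 25 points, and the myeloid list holds called genes on both sides of a median of -15.8.

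Of 30 measured skeletal muscle genes 2 were called higher and none lower, 17 were separated higher and 5 lower, and the median difference was 7.09 points. Of all gene ends 1.22% were called and 23.2% separated higher. Tiles, which like these windows have mostly high levels in the teratomas, were separated higher in 44.9% of cases. Tiles at 20% to 40% in muscle, where the median of this list lies, were called higher in 15.5% of cases. The median level of the list was 78.4% and 75.8% in P5_2iL and P5_2iL_F, 56.8% in P5_a2iL_1, 59.3% in P5_LCDM_1 and 20.7% in muscle, the tissue that expresses these genes. Lmod3, which caps thin filaments in myofibres, had 85.1% and 86.9% against 56.3% and 59.5%, with 4.64% in muscle. Tnni1, the troponin I of slow fibres, had 88.6% and 77.1% against 57.3% and 49.6%, with a difference of 23.7 points without P5_2iL. On the first strand alone Lmod3 differed by 19.3 points and Tnni1 by 24.997, and neither was called there. At its other end Myog, a master regulator of muscle differentiation, was higher by 30.2 points.

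Of 31 endoderm and epithelium genes 3 were called higher and none lower, where 1.22% and 0.485% of all gene ends were. Krt7, a keratin of simple and glandular epithelium, had 96.5% and 86.3% in P5_2iL and P5_2iL_F against 66.0% and 42.3% over 52 cytosines. Krt8, another keratin of simple epithelium, had 80% and 72.5% against 56.7% and 38.8%. Its difference was 24.8 points without P5_2iL, 19.6 without P5_LCDM_1 and 14.8 on the second strand alone. Cldn4, of epithelial tight junctions, had 82.6% and 77.9% against 43.2% and 57.4%, and 22.9 points without P5_a2iL_1. The median difference of the list was 0.63 points, since most members were near 0 points.

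Endothelial and mesenchymal lists each held 1 called gene, where 1.22% of all gene ends were called higher and 0.485% lower. Plvap, which forms the diaphragms of endothelial fenestrae, had 72.5% and 69.5% against 44.0% and 26.2%, and was the only one called of 19 endothelial genes. On the second strand alone it differed by 23.9 points. Fap, a protease of activated fibroblasts, had 13.8% and 17.3% against 38.7% and 56.0%, was lower by 23.2 points without P5_LCDM_1, and was the only one called of 23 mesenchyme and cartilage genes. Among 28 measured collagen genes none was called.

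Germline and imprinted genes held 3 calls, all higher, where 1.22% of all gene ends and 4.87% of tiles were called higher. Germline windows have mostly high levels, with a median of 77.2% in muscle, so the share over tiles is their nearer background. Of 40 germline genes 2 were called, Zar1l, a relative of the maternal factor Zar1 (97.1% and 88.9% against 23.3% and 56.0% over 5 cytosines), and Piwil1, of the piRNA pathway, at its 3′ end (29.1 points, 24.7 without P5_2iL_F and 23.7 without P5_LCDM_1). Of 39 imprinted genes Mcts2 was called, with 97.4%, 89.6%, 82.4% and 33.2% in P5_2iL, P5_2iL_F, P5_a2iL_1 and P5_LCDM_1 and 30.6% in muscle over 78 cytosines, and its difference was 11.1 points without P5_LCDM_1. The imprinted pair Peg10 and Sgce, which share 49 cytosines, showed a level of 85.7% in P5_a2iL_1 against 43.1%, 38.5% and 37.6% in P5_2iL, P5_2iL_F and P5_LCDM_1. At these genes 1 library stood apart, and the sides overlapped at Peg10 and Sgce.

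None of 27 pluripotency, 30 neural, 12 trophoblast, 70 Polycomb-regulated, 35 tumour suppressor and 18 DNA methylation machinery genes was called, where 1.22% of all gene ends were called higher and 0.485% lower, so that lists of these sizes would hold few calls at that share. At Pou5f1, the core pluripotency factor, the levels were 55.3% and 62.6% in P5_2iL and P5_2iL_F against 63.4% and 72.0%, and at Sox2 3.20% and 1.30% against 4.97% and 11.3%. The Polycomb-regulated list leaned lower by small amounts, with 33 of 70 genes separated lower and 6 higher. Of all gene ends 19.4% were separated lower and 23.2% higher. The list had a median difference of -1.64 points and median levels of 3.92%, 4.42%, 5.91% and 7.84% in P5_2iL, P5_2iL_F, P5_a2iL_1 and P5_LCDM_1. Of 37 Hox genes 13 were separated lower and 6 higher, beside the same shares over all gene ends, and none of them was called.

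Of 52 olfactory receptor genes 5 were called higher and none lower, 32 were separated higher and 1 lower, and the median difference was 8.49 points. Of 37 keratin genes 4 were called higher and none lower, 25 were separated higher and 2 lower, and the median difference was 9.93 points. Both families have mostly high levels, where the shares over tiles (4.87% called and 44.9% separated higher) are the nearer background than those over gene ends (1.22% and 23.2%). Of 17 chemokine genes the neighbours Ccl3 and Ccl4, which attract myeloid cells and lymphocytes, were lower by 30.6 and 37.7 points, and Cxcl10, an interferon-induced chemokine, was higher by 33.3. Only 1 of 296 Zfp genes and none of 39 clustered protocadherins was called.

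Short motifs were counted in the 300-base promoters of genes whose called window lay at the 5′ end, on both strands. The letters TGTGGT, bound by RUNX factors, occurred in 13 of 34 promoters of lower genes (38.2%), in 15 of 76 of higher genes (19.7%) and in 11.7% of all 10119. The ETS letters GGAAGT occurred in 26.5%, 27.6% and 26.3%, the GATA letters AGATAA in 14.7%, 15.8% and 5.81%, and the E-box letters CANNTG, which can overlap the others, in 82.4%, 80.3% and 62.9%. The letters TTGCGNAA, bound by CEBP factors, occurred in 0, 0 and 1.11%. These promoters held a median of 7 and 6 CpGs against 21 in all, so they differ from the rest in base composition too. A match is a description of letters and not of binding.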

How the data were processed

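The deposited files hold 1 methylation level per cytosine of a CpG, in percent, made by the authors with Trim Galore 0.6.4 and Bismark on mm10 per the submitters' processing notes. The sources used here do not give read depth, the version of Bismark or any coverage minimum, so no interval or count test was possible and precision was read from strand pairs alone. Positions count from 1: all 302758 listed positions inside RefSeq promoters of GRCm38.p6 fell in a CpG.

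Cytosines listed in all 5 files (3162868) were averaged with equal weight over 1 kb tiles and gene ends (5 or more cytosines), and runs of exactly 2 neighbouring positions were taken as strand pairs (943786). The calling rule used 25 points and separation of the sides. The members and lists were chosen with earlier results of these data known. Named genes were the 12 widest called gene ends in each direction with 8 or more cytosines and at most 5 called members per list and direction. Named tiles and runs were the 5 widest called tiles with 10 or more cytosines and the 3 longest runs in each direction. Windows of neighbouring genes can overlap. Genes named outside this rule were chosen after their values were seen: Abca13, Nradd, Lypd3, Rac2, Nckap1l, Myog, Pou5f1, Sox2, Peg10, Sgce and the keratin, chemokine and collagen families. Other settings are given in the closing section. The code ran on Python 3.11.15 with pandas 2.3.3 and NumPy 2.4.6, drew figures with matplotlib 3.10.9, and was tested on simulated data.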

Additional observations from a re-analysis of the deposited data

How the results depend on the processing

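The difference in mean level kept its sign under every setting run (2.70 to 4.81 points leaving out 1 library in turn), while the counts depend on the thresholds. Counts follow as tiles higher, tiles lower, gene ends higher and gene ends lower. With 15 points they were 26138, 5125, 519 and 190, and with 40 points 1075, 778, 15 and 25. With the strands of each CpG averaged they were 2260, 862, 76 and 37, over fewer regions. With 3 or more cytosines 12726 tiles were higher, and with 10 or more the first 3 counts were 3101, 1235 and 94. The first cytosine of each CpG gave 2712, 968 and 104, and the second 2724, 965 and 85. Medians over cytosines gave 107 lower gene ends. Centred libraries gave 3596 higher and 4028 lower tiles. Leaving out 1 library in turn gave 7132 to 19356, 2558 to 3558, 167 to 325 and 69 to 152, the highest of each without P5_a2iL_1. Tiles of 2 kb, autosomes alone, gene starts, cytosines of the 4 teratomas and nearest libraries 10 points apart kept each count within 1.5 times. Of 728 recomputed differences of 48 named gene ends 669 kept their call, 59 lost it and 0 reversed. These gene ends were picked as called, so 15 points, 3 or more cytosines, 10 or more cytosines and autosomes alone could not undo a call. Part of the 669 was thus fixed in advance. Gene ends with too few cytosines under a setting were left out, and 30 of 48 remained with strands averaged or taken singly. The cause of the shifts between settings was not tested. No paired analysis was possible because each label has 1 library. Read depth is unknown, so no difference could be weighed by it.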

Other observations

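Most classes of genes that make no protein were also called higher in the 2iL side more often than lower. Transfer RNA genes (2 higher and 4 lower of 241) and transcribed pseudogenes (1 and 4 of 148) were not. Of 5055 ends of long non-coding RNA genes 227 were called higher and 65 lower, and of 2123 pseudogenes 71 and 17. Of 446 microRNA genes 26 were called higher (5.83%) and 7 lower (1.57%), and the 33 called windows form 24 groups that do not overlap. Over all tiles the shares were close to these, at 4.87% and 1.56%, and over protein-coding gene ends they were 1.22% and 0.485%.

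Mature sequences of microRNAs with a called window are given 5′ to 3′ from RefSeq on GRCm38.p6, with the seed, bases 2 to 8, in capitals, to show which of them share a seed. They were chosen after the values had been seen.
miR-142a-5p: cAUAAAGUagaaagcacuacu
miR-142a-3p: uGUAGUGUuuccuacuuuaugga
miR-23a-3p: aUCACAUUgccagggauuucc
miR-27a-3p: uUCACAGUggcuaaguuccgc
miR-24-3p: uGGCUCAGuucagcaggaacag
miR-322-5p: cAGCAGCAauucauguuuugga
miR-503-5p: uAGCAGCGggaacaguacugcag
miR-26a-5p: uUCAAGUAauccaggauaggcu
miR-126a-3p: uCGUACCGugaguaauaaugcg

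Mir142, whose product marks blood cells, had 2.98% and 7.61% in P5_2iL and P5_2iL_F against 26.1% in P5_a2iL_1, 38.8% in P5_LCDM_1 and 64.4% in muscle. The cluster of Mir23a, Mir27a and Mir24-2, known from blood and endothelium, had 0% and 10.7% against 40% and 70% over 5 shared cytosines, with 0% in muscle. Both windows were lower in the 2iL side, but muscle lay on different sides of them.

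Mir322 and Mir503, X-linked neighbours whose products belong to the miR-15/16 family and differ in the last base of the seed, had 97.9% and 88.2% in P5_2iL and P5_2iL_F against 71.3% and 45.0%, over 8 shared cytosines. Mir26a-1, in the Ctdspl stretch of chromosome 9, had 97.5% and 92.4% against 85.6% and 32.0%. Mir126a, the endothelial microRNA in Egfl7, had 95.9% and 86.6% against 82.7% and 49.6%. In Mir26a-1 and Mir126a P5_a2iL_1 lay within 6.76 and 3.97 points of the 2iL side, and P5_LCDM_1 stood apart.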
